A study of Mus musculus with 6 samples.

Results

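The gp130 cytokine pathway of the mouse uterus was followed through 10 listed genes. They were 4 ligands (Lif, Il11, Il6 and Osm), 4 ligand-binding receptors (Lifr, Il11ra1, Il6ra and Osmr), the shared receptor chain gp130 (Il6st) and the transcription factor Stat3. They were chosen by name, with earlier results of these data known. Every probe set that the platform annotation assigned to exactly 1 of these symbols was taken. This gave 21 probe sets for 9 genes, out of 18193 genes with such a probe set, and Il11ra1 was not analysed here.

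Whole-genome mouse arrays had been hybridised with total RNA of uterine horns without cervix from C57BL6J mice, taken 2 weeks after a surgery. Its kind and the age of the mice are not stated in the labels. SF1 uteri (3 arrays) were Pgrcre/+ SF1LsL/+. They carried a transgene for SF1, the nuclear receptor encoded by Nr5a1, with a Cre allele at the progesterone receptor (Pgr) locus that by design activates the transgene in Pgr-expressing cells. Control uteri (3 arrays) were SF1LsL/+, with the same transgene and no Cre, so SF1, Cre and the altered Pgr allele differed together between the groups. Each array held RNA pooled from 2 uteri.

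Cytokines of this family bind a receptor of their own that pairs with gp130. The joined receptors activate Janus kinases, which phosphorylate STAT3, and STAT3 then enters the nucleus and switches on genes that include its own inhibitor Socs3. In the mouse uterus LIF, made by the glands under estrogen, acts on the luminal epithelium and is needed for the embryo to implant, and IL11 signalling in the stroma is needed for a normal decidua. Arrays measure transcripts and not the phosphorylation that activates STAT3.

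Array medians lay between 149.9 and 162.2 intensity units. Pearson correlations of log2 values were at least 0.9912 among SF1 arrays and 0.9875 among control arrays, and at most 0.9789 between the groups. Beta-actin's 3' over 5' signal, a sign of RNA quality, was 2.12 to 2.34 in SF1 and 2.38 to 2.58 in control, and that of Gapdh was 1.47 to 1.66 in SF1 and 1.53 to 1.7 in control. The brighter Nr5a1 probe set read 151.3, 151.2 and 151.5 in SF1 replicates 1 to 3 and 138.8, 171.5 and 144.8 in control replicates 1 to 3. Whether it lies within the transgene is unknown, so it does not check the labels. SF1 replicate 2 stood apart in neutrophil genes, whose intensities summed to 1335, 23900 and 1052 units over SF1 replicates 1 to 3, compared with 856 to 1446 in control. Pgr read 1932, 1719 and 2027 in SF1 and 4899, 4747 and 4744 in control (log2 change -1.34 ± 0.09, SE; adjusted p = 3.23e-05).

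Among the members the 2 rises in SF1 were those of Stat3 and of the oncostatin M receptor Osmr, and the 1 fall was that of the interleukin 6 receptor Il6ra. The remaining 6 genes, among them all 4 ligands, Lifr and gp130 itself, were not called. A gene was represented by its brightest probe set and called at a Benjamini-Hochberg adjusted p under 0.05 over all 45037 probe sets. The calls came from limma, fitted on log2(intensity + 16). In that fit 5 of the 9 members had an unadjusted p under 0.05. The share of all genes under that threshold was not counted, so the 5 cannot be read as many or few. Over all genes, 8.45% were called higher and 8.11% lower, so 2 and 1 of 9 were few genes to read against those shares. Of the 21 member probe sets, 2 were called higher and 1 lower, where 5.88% and 8.08% of all probe sets were. The groups did not overlap for 3 members with SF1 higher, where 16.3% of all genes did so, and for 2 with SF1 lower, where 23.7% did so. Among the member probe sets 5 lay higher and 5 lower without overlap, against 12.1% and 24.6% of all probe sets. The median log2 change was 0.09 over the 9 members and -0.05 over all genes. The calls did not all hold with 1 array left out, with 0 members called in limma without SF1 replicate 1 (5 at an unadjusted p under 0.05). Calls over all genes also fell in that fit, from 3013 to 1946. The log2 changes without SF1 replicate 1 were 0.61 for Stat3, 0.50 for Osmr and -0.40 for Il6ra. There was 1 call without SF1 replicate 2, and likewise without control replicate 1 or control replicate 2.

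**Figure D1:**
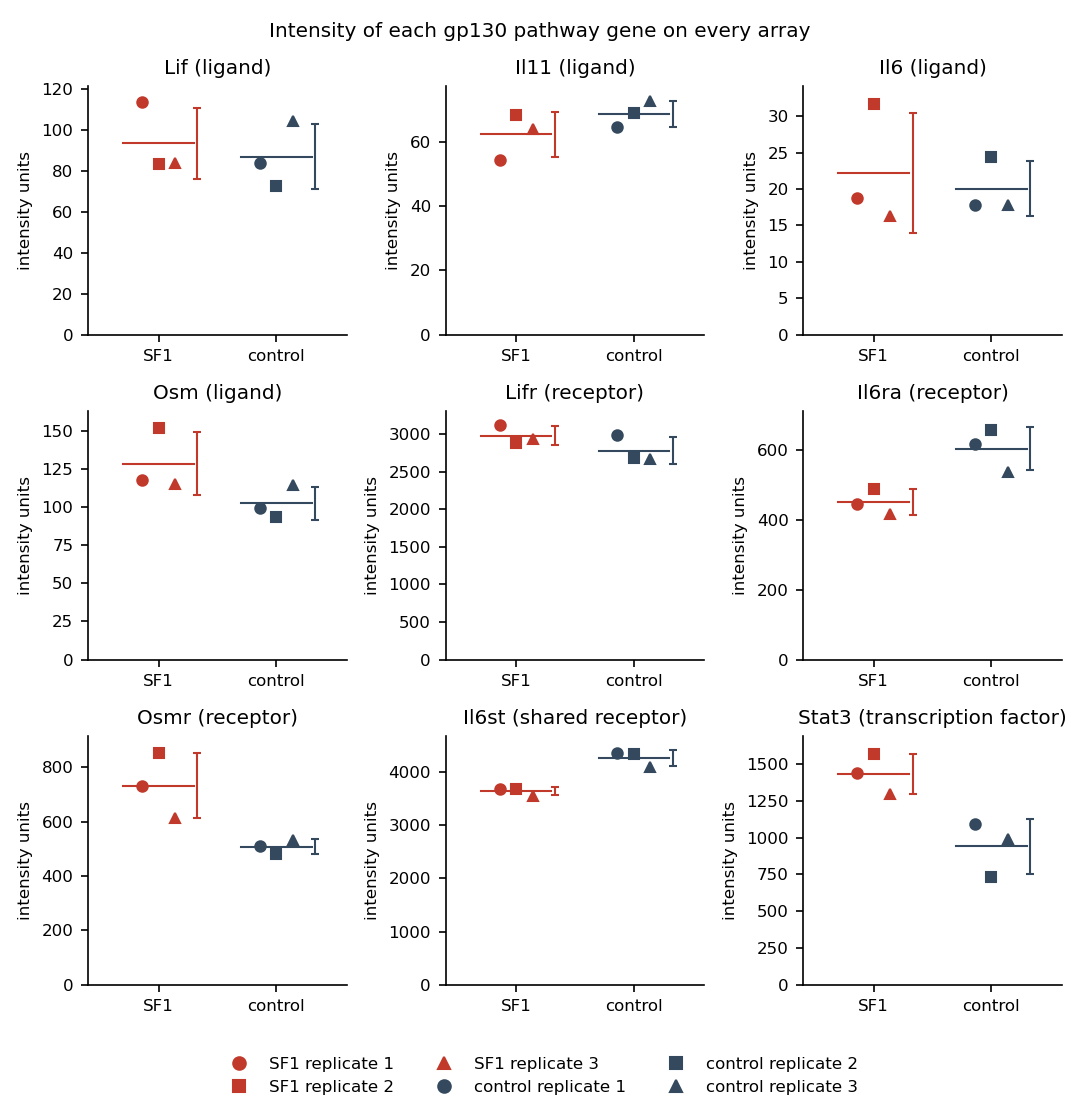
Intensity (linear axis from 0, own scale for each gene) of the probe set that represented each of the 9 measured members, with SF1 arrays in red left of control arrays in blue. Lines and bars give the mean and SD of 3 arrays. Stat3, Osmr and Osm read higher in all 3 SF1 arrays than in any control array, Il6ra and Il6st lower, and Lif, Il11, Il6 and Lifr overlapped.

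The promoters of the members that rose are given first, beside that of Lifr, the member whose window held an SF1 motif, and that of Socs3, the feedback inhibitor, whose window held a STAT motif. Each window runs from 250 bases before to 50 bases after the RefSeq start site, 5′ to 3′ on the gene's strand (GRCm38.p6), and capitals mark a motif.
Stat3, chr11:100939491-100939790, minus strand: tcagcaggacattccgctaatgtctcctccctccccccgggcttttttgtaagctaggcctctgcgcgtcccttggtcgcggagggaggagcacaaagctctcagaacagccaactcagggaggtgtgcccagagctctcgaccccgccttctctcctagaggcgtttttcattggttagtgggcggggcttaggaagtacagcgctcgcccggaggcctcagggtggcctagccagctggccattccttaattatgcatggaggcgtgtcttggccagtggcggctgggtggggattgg
Osmr, chr15:6874264-6874563, minus strand: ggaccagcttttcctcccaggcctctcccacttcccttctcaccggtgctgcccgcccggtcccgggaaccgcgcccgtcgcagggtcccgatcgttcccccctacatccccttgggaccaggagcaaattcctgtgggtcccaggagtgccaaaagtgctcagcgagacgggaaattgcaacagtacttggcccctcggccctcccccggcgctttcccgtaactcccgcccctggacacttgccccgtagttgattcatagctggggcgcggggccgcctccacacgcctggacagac
Lifr, chr15:7129322-7129621, plus strand: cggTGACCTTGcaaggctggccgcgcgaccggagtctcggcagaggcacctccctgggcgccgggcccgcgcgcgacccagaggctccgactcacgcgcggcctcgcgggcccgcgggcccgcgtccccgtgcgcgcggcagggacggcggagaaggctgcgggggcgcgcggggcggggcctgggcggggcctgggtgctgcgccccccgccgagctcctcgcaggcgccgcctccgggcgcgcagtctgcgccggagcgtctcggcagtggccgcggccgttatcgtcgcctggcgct
Socs3, chr11:117969317-117969616, minus strand: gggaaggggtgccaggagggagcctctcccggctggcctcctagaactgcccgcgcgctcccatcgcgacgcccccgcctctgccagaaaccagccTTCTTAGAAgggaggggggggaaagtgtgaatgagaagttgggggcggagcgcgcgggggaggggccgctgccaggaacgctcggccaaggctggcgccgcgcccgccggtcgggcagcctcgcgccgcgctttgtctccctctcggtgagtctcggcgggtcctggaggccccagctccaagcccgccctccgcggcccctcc
The motifs searched on both strands were TTCNNNGAA for STAT proteins and CAAGGTCA for SF1, which do not overlap in these windows. Windows of 9 of the 10 listed genes were in the table, 12 in all because Lifr, Il11 and Il11ra1 had more than 1. None of the 12 held the STAT motif, which 8.3% of all 32851 windows held. The SF1 motif stood in 1 of them, 247 bases before the upstream start site of Lifr, written TGACCTTG on the gene's strand, and 1.56% of all windows held it. The Socs3 window held TTCTTAGAA 154 bases before its start. A match is a string of letters and not a measured binding site, and a window without a match says only that these letters are not in it.

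LIF is the ligand on which implantation depends. The brighter Lif probe set read 113.4, 83.3 and 83.5 intensity units in SF1 replicates 1 to 3, against 83.9, 72.6 and 104.1 in control replicates 1 to 3. The groups overlapped, and the log2 difference was 0.09 ± 0.14 (SE; adjusted p = 0.706), with a 95% interval from 0.851-fold to 1.33-fold on the log2(intensity + 16) scale. The other Lif probe set read 62.2, 81.5 and 67.3 in SF1 and 73.0, 76.2 and 85.5 in control, a difference of -0.13 (adjusted p = 0.426). The sign of Lif thus differed between its 2 probe sets, and neither passed the test. Both probe sets read below the lowest array median (149.9 units) on every array, so a change in Lif could have been missed. Of 8 markers of uterine glands, where LIF is made, 1 rose in SF1 (Foxa2) and 4 fell (Cxcl15, Lgr5, Aldh1a1 and Ttr), and their summed intensity was 2792 to 3564 in SF1 and 4960 to 5549 in control. That is 12.5% higher and 50% lower, against 8.45% and 8.11% of all genes. None of these markers read 0, and their part in the Lif values was not tested. In whole tissue, fewer cells of a type and less RNA per cell cannot be told apart.

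IL11 is the ligand of the decidualizing stroma. Il11 read 54.5, 68.5 and 64.1 in SF1 and 64.7, 69.2 and 72.7 in control, with overlapping groups and a log2 difference of -0.12 ± 0.09 (SE; adjusted p = 0.421; 95% interval from 0.797-fold to 1.07-fold). Il6, which encodes an inflammatory cytokine, was dim on all arrays. It read 18.8, 31.7 and 16.2 in SF1 and 17.8, 24.5 and 17.9 in control (0.07 ± 0.15; adjusted p = 0.786), and the sign turned without SF1 replicate 2 (-0.10). At such intensities, close to the pseudocount of 16, a change would be compressed. Osm, which encodes oncostatin M, a cytokine made mainly by leukocytes, read 117.9, 152.2 and 114.9 in SF1 and 99.3, 93.6 and 114.4 in control. The Osm groups were separated by a narrow gap, and the log2 difference of 0.28 ± 0.12 did not pass the test (adjusted p = 0.149). Without SF1 replicate 2 it was 0.16 (adjusted p = 0.34).

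The receptors differed among themselves. Osmr, the chain that pairs with gp130 to bind oncostatin M, read 731, 852 and 614 in SF1 and 511, 480 and 533 in control. Every SF1 array was above every control array, and Osmr rose by 0.50 ± 0.12 (SE; adjusted p = 0.0249; 1.42-fold, 95% interval from 1.18 to 1.71). The other 2 Osmr probe sets were dim, at means of 42.7 ± 6.82 and 34.0 ± 5.08 in SF1 and 52.2 ± 1.87 and 39.0 ± 2.91 in control (SD, n = 3), and pointed the other way at -0.22 (adjusted p = 0.174) and -0.14 (adjusted p = 0.357). The mean of the 3 probe sets did not pass (0.05, adjusted p = 0.721). The Osmr call was also lost when replicate 1 or 2 of either group was left out, with log2 changes between 0.39 and 0.51 and a highest adjusted p of 0.079.

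Il6ra, the receptor that gives cells their response to interleukin 6, read 444.5, 489.7 and 417.6 in SF1 and 616.8, 657.5 and 537.2 in control. It fell by 0.41 ± 0.10 on the log2 scale (adjusted p = 0.0301; 0.754-fold, 95% interval from 0.643 to 0.884), and the groups did not overlap. Its other probe set had a difference of -0.25 (adjusted p = 0.108), also with every SF1 array below every control array. The mean of both passed the test at -0.33 (adjusted p = 0.0179). The call was lost with control replicate 1 or 2, or SF1 replicate 1 or 3, left out (highest adjusted p = 0.0962), while the log2 change stayed between -0.49 and -0.35 in every fit that left out 1 array.

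Lifr, the receptor chain that binds LIF, was bright and close between the groups. It read 3120, 2884 and 2927 in SF1 and 2985, 2682 and 2667 in control, which overlapped (0.10 ± 0.08; adjusted p = 0.443; 95% interval from 0.942-fold to 1.22-fold). Its 2 dim probe sets had non-overlapping groups in opposite directions, at 0.33 (adjusted p = 0.0561) and -0.21 (adjusted p = 0.137). Il6st, the gp130 chain that all these receptors share, read 3692, 3687 and 3550 in SF1 and 4359, 4341 and 4099 in control. All SF1 arrays lay below the control arrays, but the difference of -0.23 ± 0.07 did not pass (adjusted p = 0.0772; 0.855-fold, 95% interval from 0.761 to 0.96). It passed after quantile normalization (adjusted p = 0.0309), while its other 3 probe sets, at 0.12, 0.02 and -0.06, had overlapping groups.

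**Figure D2:**
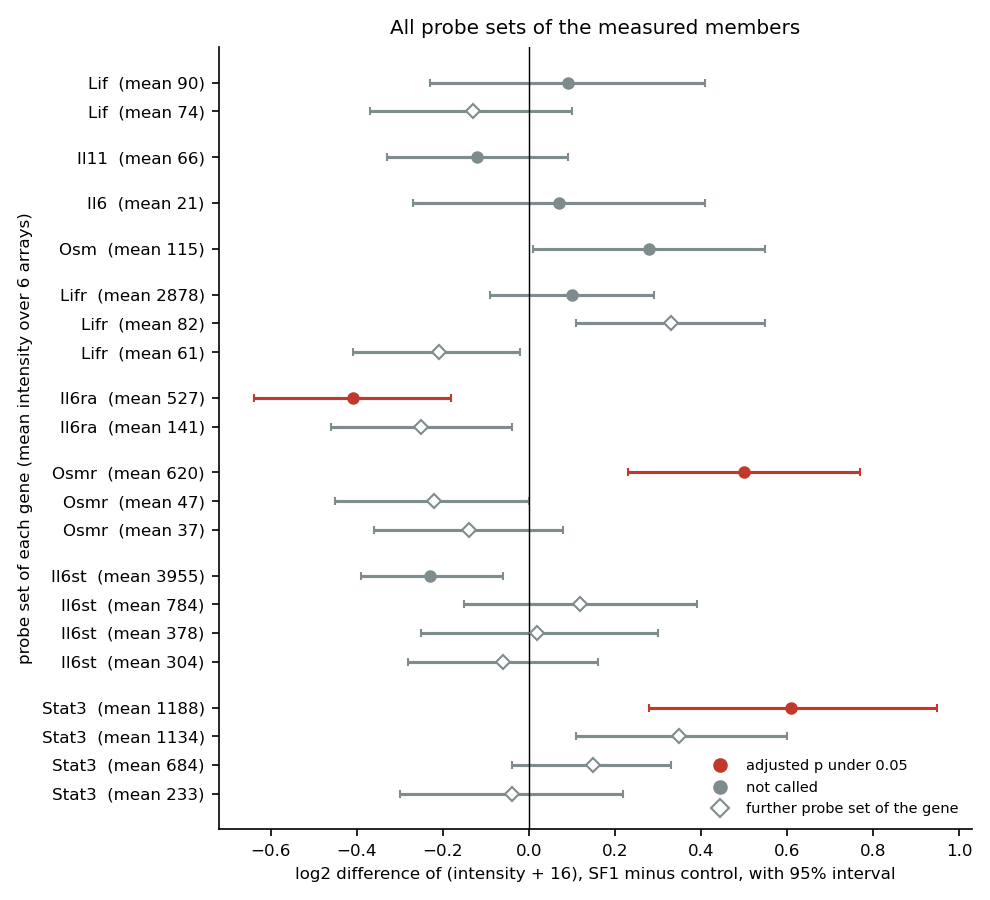
Log2 difference of (intensity + 16), SF1 minus control, with its 95% interval, for all 21 probe sets of the 9 measured members, each labelled with its mean intensity over 6 arrays. Only the brightest probe sets of Il6ra (-0.41), Osmr (0.50) and Stat3 (0.61) were called, and the dimmer probe sets of Osmr and Lifr differed in sign from one another or from the brightest.

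Stat3, the transcription factor that these receptors activate, read 1439, 1566 and 1298 in SF1 and 1094, 735 and 995 in control. The groups did not overlap, and Stat3 rose by 0.61 ± 0.15 (SE; adjusted p = 0.0254; 1.53-fold, 95% interval from 1.22 to 1.93). A second bright probe set read 1224, 1479 and 1131 in SF1 and 947, 1013 and 1013 in control, also without overlap (0.35 ± 0.11; adjusted p = 0.0612). The other 2 gave 0.15 (adjusted p = 0.259) and -0.04 (adjusted p = 0.825), and the mean of all 4 rose by 0.27 (adjusted p = 0.0354). The call of the brightest was lost without SF1 replicate 1 (0.61, adjusted p = 0.08) or SF1 replicate 2 (0.55, adjusted p = 0.0863).

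Genes with the profile nearest to that of Stat3 over the 6 arrays, by root mean square difference of log2 values centred on the control mean, were Tank (0.0617), Gas2l1 (0.0643) and Skil (0.067). Their log2 changes were 0.60, 0.61 and 0.67, and Tank was not called in limma (adjusted p = 0.0569). Nearest to Il6ra were Gprin3 (0.0434), Ct55 (0.0484) and Pcdh12 (0.0495), with changes of -0.40, -0.41 and -0.38. This likeness is a description of 6 arrays in 2 groups, and similar changes follow from choosing genes by the nearest profile.

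Of the further gp130 family genes, 8 were measured, and 1 rose and 1 fell, with a median log2 change of -0.04 (all genes, -0.05). That is 12.5% in each direction, against 8.45% higher and 8.11% lower of all genes. Clcf1, a ligand of the ciliary neurotrophic factor receptor, read 392.3, 379.7 and 338.7 in SF1 and 732, 840 and 521 in control. It fell by 0.86 ± 0.16 (adjusted p = 0.00824), a larger change than that of any other gp130-family ligand measured here, and another of its 3 probe sets was called lower too. Il27ra, the receptor of interleukin 27, read 191, 211 and 178 in SF1 and 131, 119 and 141 in control, and rose by 0.52 ± 0.09 (adjusted p = 0.00754). Both calls held without any 1 array. The other 6 were not called, among them Ctf1 (0.18), Ebi3 (0.21, and -0.02 without SF1 replicate 2) and Cntfr (-0.18), whose dimmer probe set was called lower.

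Between receptor and gene stand the kinases and their brakes, of which 15 were measured, and 1 rose and 3 fell in SF1, with a median log2 change of 0.03. That is 6.67% higher and 20% lower, against 8.45% and 8.11% of all genes. Jak2, a Janus kinase, read 1640, 1603 and 1745 in SF1 and 2651, 2576 and 2644 in control, and fell by 0.65 ± 0.07 (adjusted p = 0.000672) in values with a wide gap between the groups. A second Jak2 probe set was also called lower, and the call held without any 1 array. Jak1, the kinase on which gp130 signalling mainly depends, read 1412, 1483 and 1218 in SF1 and 1248, 1192 and 1337 in control (0.12 ± 0.10; adjusted p = 0.44). Gab1, an adaptor protein, fell by 0.29 (adjusted p = 0.0318) and Pias3, an inhibitor of STAT3, by 0.38 (adjusted p = 0.0395). The Gab1 call was lost without any 1 of the 6 arrays, and that of Pias3 without any 1 except control replicate 1 (highest adjusted p = 0.0997 and 0.118). No other probe set of Gab1 or Pias3 was called. Socs2, which damps growth hormone signalling, rose by 0.57 (adjusted p = 0.0125; 0.0514 without control replicate 1). After median centring of the arrays 3 of these genes rose and 1 fell, since Gab1 and Pias3 lost and Socs3 and Ptpn2 gained a call. The total was 2 calls when any 1 array other than SF1 replicate 2 was left out.

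Socs3, the inhibitor that STAT3 induces, read 490, 1042 and 448 in SF1 and 354, 303 and 347 in control. All SF1 arrays were above all control arrays, with SF1 replicate 2 far above the other two. The log2 difference of 0.85 ± 0.27 did not pass with all arrays (adjusted p = 0.0745), and without SF1 replicate 2 it was 0.47 (adjusted p = 0.0308). That was the only 1 of the 6 fits leaving out 1 array in which Socs3 passed (highest adjusted p = 0.147). No other Socs3 probe set was called. Socs1, an inhibitor of Janus kinases, read 85.5, 86.5 and 84.9 in SF1 and 76.1, 76.8 and 83.9 in control (0.10 ± 0.07; adjusted p = 0.403).

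Among the listed genes that STAT3 is known to switch on, more were called higher than lower. Of 22 measured, 9 rose, 1 fell and 12 were not called, with a median log2 change of 0.71. That is 40.9% higher and 4.55% lower, against 8.45% and 8.11% of all genes. With trended and robust eBayes, 5 rose and 1 fell, since Fos, Junb, Timp1 and Hp lost their calls. The list was drawn up with earlier results of these data known, so its shares do not test for an excess. All of these genes also answer to other signals. Lcn2, an iron-binding acute phase protein of epithelia and neutrophils, read 5307, 11672 and 3351 in SF1 and 428, 578 and 458 in control, and rose by 3.57 ± 0.38 (adjusted p = 0.000432). Hp, haptoglobin, read 770, 3213 and 743 in SF1 and 183, 262 and 255 in control (2.34 ± 0.49; adjusted p = 0.0148), and Timp1, a metalloproteinase inhibitor, read 442, 1094 and 193 in SF1 and 125, 101 and 132 in control (1.82 ± 0.49; adjusted p = 0.0407). Icam1, an adhesion molecule for leukocytes, was even among the SF1 arrays at 463, 478 and 421, against 209, 208 and 227 in control (1.03 ± 0.08; adjusted p = 0.000106).

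The other risen response genes encode transcription factors and a cofactor of NF-kB. Fos rose by 1.25 (adjusted p = 0.0172), Bcl3, the cofactor, by 0.89 (adjusted p = 0.00612), Junb by 0.77 (adjusted p = 0.0324), Cebpb by 0.70 (adjusted p = 0.0123) and Cebpd by 0.67 (adjusted p = 0.0128). Vegfa, the angiogenic growth factor, was the 1 that fell, at 463, 469 and 466 in SF1 and 859, 916 and 732 in control (-0.82 ± 0.10; adjusted p = 0.000763). The other probe sets of Vegfa, Cebpb and Cebpd were not called. Not called were Myc (-0.17), Pim1 (-0.24), Mcl1 (0.08), Birc5 (0.29), Bcl6 (0.21) and Ccl2 (0.02), while Saa3 (1.70) and Lrg1 (0.96) had wide spreads and were 0.68 and 0.31 without SF1 replicate 2. Another of the 6 Mcl1 probe sets was called higher. Some calls were lost when 1 array was left out. Fos lost its call without SF1 replicate 1 or control replicate 3, Hp without control replicate 1, and Junb and Timp1 without SF1 replicate 1 or any 1 control array (highest adjusted p = 0.107).

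SF1 replicate 2 stood apart in this list. It held the highest SF1 reading for 20 of the 22 response genes and for 6 of the 9 members (Il11, Il6, Il6ra, Osm, Osmr and Stat3), against 39.5% of all genes. Without it, 10 response genes rose and 1 fell, the median log2 change was 0.49, and all 10 genes called with 6 arrays were called again, with Socs3 in addition. Socs3 was also counted among the kinases and their brakes. Lcn2 then rose by 3.08, Hp by 1.65 and Timp1 by 1.20. The neutrophil markers moved with that array. All 10 read highest of the SF1 arrays in replicate 2, and 0 of 10 were called in limma (0 also at an unadjusted p under 0.05). S100a8 read 11518 in SF1 replicate 2, against 327 and 192 in SF1 replicates 1 and 3.

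Markers of macrophages and monocytes also moved with the group. The marker counts that follow stand against 8.45% of all genes called higher and 8.11% called lower. Of 10, 7 rose and 0 fell, and their summed intensity was 13914 to 20287 in SF1 and 7547 to 11659 in control. The 7 became 3 when SF1 replicate 1 or 2 was left out. Of 6 T cell markers 4 rose, with sums of 1563 to 1796 in SF1 and 929 to 1117 in control, and the 4 became 2 when replicate 1 of either group or SF1 replicate 2 was left out. Epithelial markers summed to 17720 to 19888 in SF1 and 14987 to 16126 in control (4 of 8 rose, 2 fell). Without SF1 replicate 1, 2 epithelial markers rose and 1 fell. Stromal markers summed to 34652 to 35731 in SF1 and 43668 to 45152 in control (0 of 9 rose, 6 fell), and endothelial markers to 3637 to 4014 in SF1 and 5625 to 5769 in control (0 of 7 rose, 6 fell). In limma 0 of the 7 smooth muscle markers were called (2 at an unadjusted p under 0.05). No marker in any of these lists read 0. The part of these cell types in the values of Stat3, Osmr, Osm, Il6ra and the response genes was not tested.

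**Figure D3:**
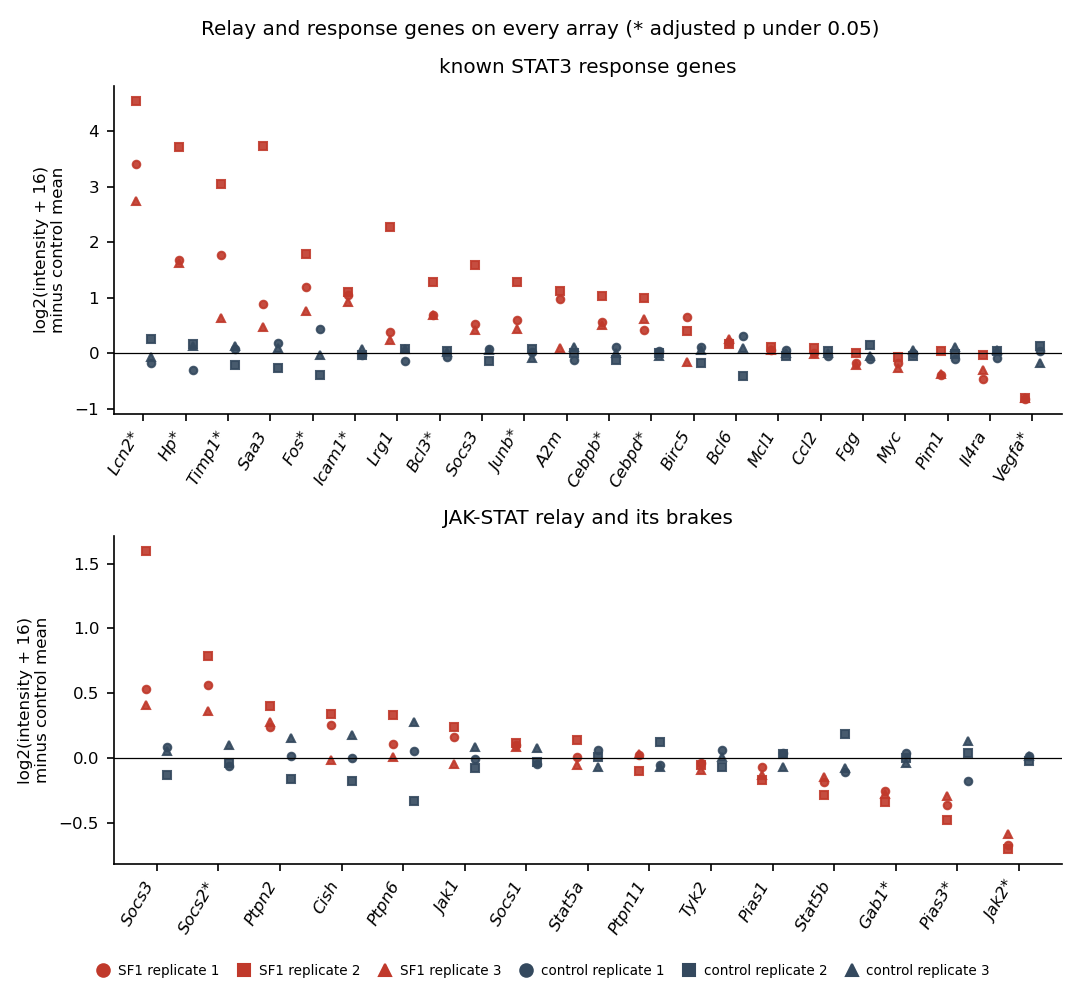
Log2(intensity + 16) minus the mean of the control arrays for the 22 STAT3 response genes (above) and the 15 kinases, adaptors and brakes (below), 1 point per array, SF1 in red left of control in blue, ordered by log2 change. SF1 replicate 2 (red squares) lies above the other SF1 arrays for most response genes, including Hp, Saa3 and Lrg1, whereas Icam1, Vegfa and Jak2 are even among the SF1 arrays.

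Genes tied to LIF action and implantation were measured next. Of 12, 4 rose, 5 fell and 3 were not called, which is 33.3% and 41.7%, against 8.45% and 8.11% of all genes, and the median log2 change was 0.30. This list was drawn up with earlier results of these data known, so its shares do not test for an excess. Msx1, a homeobox gene of the receptive epithelium, read 971, 827 and 915 in SF1 and 2569, 2619 and 2443 in control, and fell by 1.48 ± 0.09 (adjusted p = 2.09e-05). Ihh, the epithelial hedgehog ligand that progesterone induces, read 63.9, 57.9 and 73.5 in SF1 and 182.3, 191.0 and 186.8 in control (-1.33 ± 0.09; adjusted p = 4.31e-05). Lpar3, a lysophosphatidic acid receptor needed for embryo spacing, read 128, 122 and 191 in SF1 and 409, 390 and 343 in control (-1.31 ± 0.15; adjusted p = 0.000798). Klf5, an epithelial transcription factor, fell by 0.72 (adjusted p = 0.000938) and Hbegf, a growth factor at the site of attachment, by 0.48 (adjusted p = 0.00822). Another Klf5 probe set was called lower too, and the other Hbegf probe set was not called.

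The implantation genes that rose were led by Muc1, a mucin of the luminal surface, at 1034, 1161 and 748 in SF1 and 240, 215 and 271 in control (1.93 ± 0.16; adjusted p = 0.000113). Wnt4, a secreted signal of the decidua, rose by 0.84 (adjusted p = 0.000788), the kinase gene Sgk1 by 0.63 and the immediate early gene Egr1 by 0.48 (both adjusted p = 0.0176). Sgk1 lost its call when control replicate 1 or SF1 replicate 2 or 3 was left out, and Egr1 when SF1 replicate 1 or 2 was (highest adjusted p = 0.0649 and 0.0597). The other 7 called genes kept their calls without any 1 array. Acod1, the itaconate-making enzyme gene, read 182, 1494 and 289 in SF1 and 84.9, 98.4 and 80.1 in control, and was not called with all arrays (2.12 ± 0.62; adjusted p = 0.054). Without SF1 replicate 2 it rose by 1.25 (adjusted p = 0.00514), and it also passed after median centring and with the replicate block. It did not pass after quantile normalization, with a pseudocount of 64 or with trended and robust eBayes. Of the 6 fits that left out 1 array, it passed in 2 (highest adjusted p = 0.123).

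Of 11 decidual genes, 4 rose, 4 fell and 3 were not called, with a median log2 change of 0.29. That is 36.4% in each direction, against 8.45% higher and 8.11% lower of all genes. The decidual list, too, was drawn up with earlier results of these data known, so its shares do not test for an excess. The falls were those of Bmp2, a stromal growth factor of decidualization, at 240, 230 and 267 in SF1 and 577, 617 and 516 in control (-1.16 ± 0.10; adjusted p = 0.000114), and of the stromal transcription factor genes Hoxa11 (-1.05, adjusted p = 0.0019), Hand2 (-0.88, adjusted p = 0.000294) and Hoxa10 (-0.73, adjusted p = 0.000654). Hoxa11 and Hand2 are also among the 6 stromal markers that fell, whose list summed to 34652 to 35731 in SF1 and 43668 to 45152 in control, and the part of stromal cells in the implantation and decidual values was not tested. Wnt4, Cdkn1a (0.55, adjusted p = 0.00797), a cell cycle inhibitor, and Gja1 (0.39, adjusted p = 0.00849), the gap junction protein connexin 43, rose. Ccnd3, a cyclin of decidual cells, rose by 0.31 (adjusted p = 0.0489), a call lost without any 1 array except control replicate 3 (highest adjusted p = 0.138). No other Ccnd3 probe set was called. Prl8a2, a prolactin-family gene of the decidua, was dim and not called at 27.5, 35.4 and 36.0 in SF1 and 42.8, 58.4 and 38.6 in control (-0.35 ± 0.13; adjusted p = 0.112). Changes thus stood in both directions in the implantation list and in the decidual list, and the rise of Wnt4 was counted in both. Lif and Il11 themselves were not called, but both read below the lowest array median (149.9 units) on every array. Their signal may be too low to show a change.

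**Figure D4:**
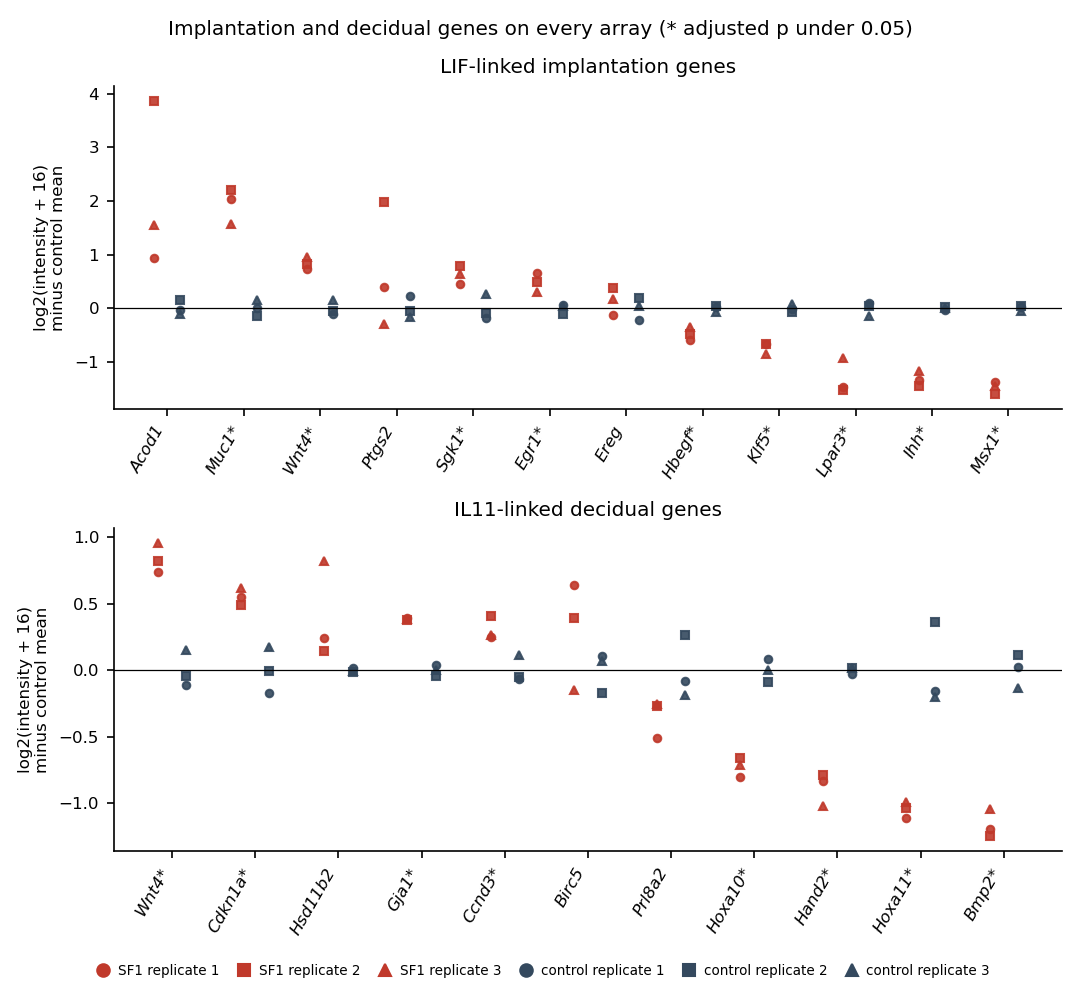
Log2(intensity + 16) minus the mean of the control arrays for 12 implantation genes (above) and 11 decidual genes (below), 1 point per array, SF1 in red left of control in blue, ordered by log2 change. Muc1 and Wnt4 lie above 0 in all SF1 arrays and Msx1, Ihh, Lpar3, Bmp2 and Hoxa11 below it, and Acod1 is highest in SF1 replicate 2.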

How the data were processed

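Biotin-labelled total RNA was hybridised to 1-colour GeneChip Mouse Genome 430 2.0 arrays, per the labels' protocols. The authors deposited linear probe set intensities, which ran from 1 to 25324.74. How background, normalization and summarization were done is not stated in the labels, and this would bear most on dim probe sets.

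The 64 Affymetrix controls among 45101 probe sets were left out. The platform annotation gave 34945 of the others 1 symbol, 932 several and 9160 none. Intensities were fitted as log2(value + 16) on group alone with limma 3.58.1 (lmFit, eBayes) in R 4.3.3, and tables and figures were made with pandas 2.3.3 and matplotlib 3.10.9 in Python 3.11.15. Fold changes understate those of dim genes. Pools were labelled as separate samples, so p-values measure the spread between pools. In simulated arrays of 45037 probe sets with the observed spread, 50 probe sets were changed at each of 4 folds. Of those changed 1.3-, 1.5-, 2- and 4-fold, 12%, 38%, 78% and 100% were called. In the data 2650 probe sets were called higher and 3641 lower, which sets another adjusted threshold. The simulated shares are therefore not the detection rates of this comparison.

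Members and gene lists were chosen with earlier results of these data known, so their shares do not test for an excess. Named genes were all members, up to 3 called genes with the largest rise and fall of each list, fixed relay genes, and others chosen after their values were seen (the further risen and fallen list genes, those not called, and S100a8). Motif searches in lists beyond the members are not reported, except Socs3. The labels state no pairing of arrays by replicate number. Deviations of same-numbered arrays from their group means correlated at -0.0633, -0.101 and -0.184, which cannot exclude a shared day or litter. Alternatives were other normalizations, pseudocounts, a brightness filter, the replicate block, trended and robust eBayes, arrays left out, and probe set means.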

Additional observations from a re-analysis of the deposited data

How the results depend on the processing

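Of all genes, 3013 were called, 1537 higher and 1476 lower, but 1796 higher and 1056 lower after median centring; 1946 were called without SF1 replicate 1, and between 1946 and 2376 over all fits that left out 1 array. With the replicate block, 1 member gene (Il6ra) and 1 member probe set were called, Osmr (0.50, adjusted p = 0.0609) and Stat3 (0.61, adjusted p = 0.0563) were not, and the relay list had 2 calls. Called member probe sets were 3, but 5 after quantile normalization (3 higher, 2 lower), median centring (4 higher, 1 lower), the brightness filter, a pseudocount of 64, or trended and robust eBayes. Il6st passed after quantile normalization (-0.29), with the filter (-0.23), with a pseudocount of 64 (-0.22) and with trended and robust eBayes (-0.23). That last setting left 6 STAT3 response genes, without Fos, Junb, Timp1 and Hp. The mean of probe sets gave 0.05 for Osmr and -0.02 for Lif, and the dimmest Stat3 probe set turned to 0.01 under quantile normalization and median centring. Leaving out 1 array gave 0 to 3 member genes and 0 to 3 member probe sets, 2 to 3 relay genes, 7 to 12 response genes, 8 to 9 implantation genes and 7 to 8 decidual genes, and log2 changes from -0.04 to 0.21 for Lif, -0.10 to 0.18 for Il6, -0.49 to -0.35 for Il6ra, 0.39 to 0.62 for Osmr and 0.45 to 0.73 for Stat3. The dimmest Stat3 probe set ranged from -0.10 to 0.06, and 2 Il6st probe sets from -0.06 to 0.14 and -0.16 to 0.00. The causes were not tested. The number of arrays limits precision, and intensities near 16 compress changes.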
